A study of Drosophila melanogaster with 3 samples.

Results

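The 10 Polycomb group genes described here were ph-p, ph-d, Psc, Su(z)2, Pc, Sce, E(z), esc, pho and Scm, chosen by name out of 13945 protein-coding genes. Each was searched from 2 kb upstream of the gene start to 2 kb past its end for the summit of a peak, a stretch of the genome where sequenced chromatin fragments piled up. The windows held 13 of the 4770 peaks of the main list, and these lay in the windows of 6 of the 10 genes.

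Chromatin had been immunoprecipitated from whole Drosophila melanogaster embryos aged 0 to 24 h and sequenced (ChIP-seq). The embryos came from the strain CG11695-GFP, in which CG11695, a zinc finger gene and the bait of the experiment, is expressed from a transgene as a fusion with eGFP, a green fluorescent protein, and an anti-GFP antibody was used. There were 3 biological replicates in 1 group, all with the transgene, and the 24 h of collection mix embryos of all stages. Chromatin was sonicated to fragments of 200 to 800 bp. No input library, embryos without the tag or other bait was analysed here, so a place that is recovered with any antibody cannot be told apart from one that the tagged protein occupies.

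Polycomb group proteins keep developmental genes, first of all the Hox genes, silent in cells where they were off early in the embryo. They work in complexes: PRC2 methylates histone H3, PRC1 binds that mark, ubiquitinates histone H2A and compacts chromatin, and PhoRC holds the other complexes at DNA elements called Polycomb response elements. Several of the genes are themselves bound by Polycomb proteins in flies, ph-p, ph-d, Psc and Su(z)2 among them.

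The peaks of highest signal in the ph-p and ph-d windows that lay outside annotated untranslated regions, and the peak at E(z), are shown here because the results turn on what lies under them. Sequences are of the plus strand of dm6, from the RefSeq copy of the assembly. In the ph-p sequence (chrX:2137229-2137429) and the ph-d sequence (chrX:2124013-2124213), the 100 bases on either side of the summit and the summit base, capitals mark bases between stretches over 300 bp long that the duplicated genes share. In the E(z) sequence (chr3L:10637977-10638041), 65 bases of intron around the summit, capitals mark AAATAT and TATAAA on either strand.
ph-p: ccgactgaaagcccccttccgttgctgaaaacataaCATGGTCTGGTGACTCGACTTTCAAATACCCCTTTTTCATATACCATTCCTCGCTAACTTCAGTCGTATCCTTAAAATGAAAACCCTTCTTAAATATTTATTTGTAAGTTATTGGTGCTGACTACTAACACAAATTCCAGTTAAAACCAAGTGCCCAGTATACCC
ph-d: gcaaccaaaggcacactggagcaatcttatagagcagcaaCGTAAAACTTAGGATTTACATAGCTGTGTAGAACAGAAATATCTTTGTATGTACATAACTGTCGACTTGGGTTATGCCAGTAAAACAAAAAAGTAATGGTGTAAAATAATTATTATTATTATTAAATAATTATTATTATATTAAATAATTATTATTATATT
E(z): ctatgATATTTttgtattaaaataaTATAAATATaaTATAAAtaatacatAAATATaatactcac

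A main peak lay in the windows of 6 of the 10 genes, against 32.1% of all protein-coding genes. Longer windows catch more summits. Of the 6 longer genes, of 7560 to 14998 bp, 5 had a peak, against 50.8% of the 1064 genes in that range of length, and of the 4 shorter genes, of 1599 to 4253 bp, 1 had a peak, against 29.7% of genes of such length. A summit within 500 bp of a transcription start site (TSS) of the gene itself was found in 5 of the 10, ph-p, ph-d, Psc, Su(z)2 and E(z), against 16.2% of all genes. That count was 2 in both remaining own lists when any 1 replicate was left out, 3 in the list that left replicate 1 out of the IDR comparison (the authors' check that peak ranks repeat between replicates) and 2 at a stricter IDR limit of 0.001. In each replicate's own list, which held 3404, 2774 and 2716 peaks in replicates 1, 2 and 3, a summit was present in the windows of the same 5 genes every time, ph-p, ph-d, Psc, Pc and E(z), against 16.7% of all genes. Su(z)2 had a peak in the own lists of replicates 1 and 3 but not of replicate 2. Sce, esc, pho and Scm had none in any of the lists. With 10 genes chosen by name, these shares are descriptions and carry no test.

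The 13 peaks were not alike. Their signal ranged from 22.5 to 1226 with a median of 319, against a median of 120 over all 4770 main peaks. The scale of this value, the authors' own for pooled libraries, was not stated, so it orders peaks within 1 list and is no count of reads. Of the 13 peaks 6 stood in the top 10% of the main list and 1 in the lowest 10%. A peak in all 3 own lists overlapped 8 of the 13 (61.5%), against 36.8% of all main peaks. The windows held 11.0 peaks per 100 kb, against 3.56 over the 6 chromosome arms, and 7 of the 13 peaks belonged to ph-p and ph-d. The arms include sequence far from genes, and no density over the windows of all genes was computed, so these regions are unlike.

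**Figure D1:**
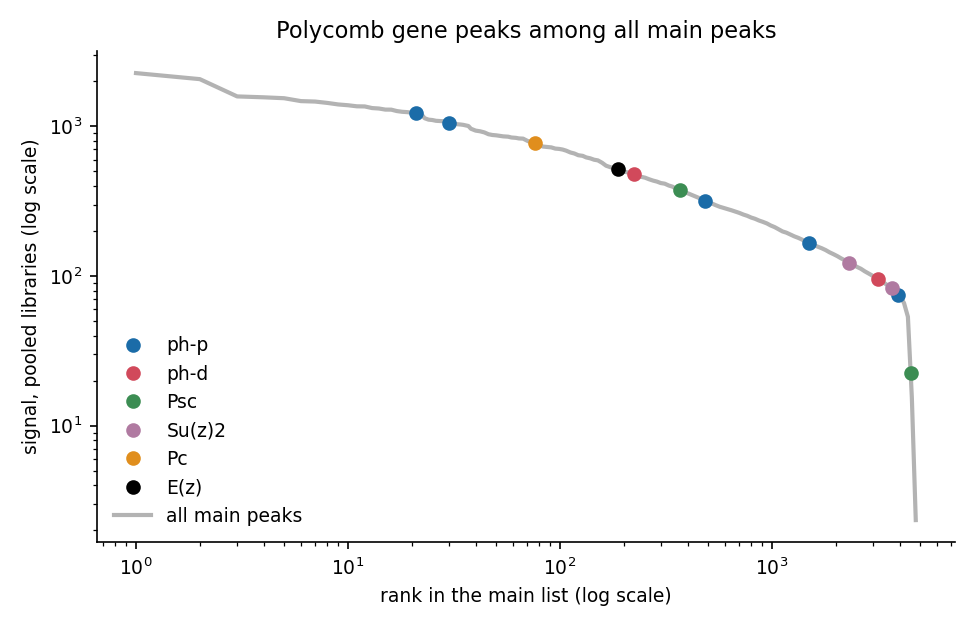
Signal of each main peak in the pooled libraries against its rank, both on log axes; coloured points are the 13 peaks in Polycomb gene windows and the grey line is all 4770 main peaks. The points run from rank 21, at ph-p, to rank 4509, at Psc.

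Of the 6 PRC1 genes, 5 had peaks in their windows, 12 of the 13 in all. Those were the same 5 genes that had a peak among the 6 longer ones. Of all genes in that range of length, 50.8% had a peak, so complex and gene length cannot be told apart here. The first of the PRC1 genes, ph-p (polyhomeotic proximal, FBgn0004861, X, 2126210 to 2138371, minus strand), encodes a PRC1 subunit with a SAM domain, through which Polyhomeotic proteins polymerise. It had 5 main peaks, more than any other of the 10 genes. The strongest (X, 2137191 to 2137522, summit 2137329) stood 474 bp upstream of an internal TSS, in an intron of the longer transcript, with a signal of 1226 and rank 21 of 4770. In the own lists its signal was 529, 407 and 340 in replicates 1, 2 and 3, at ranks 12, 18 and 22. Set against the highest signal of the same list, it reached 53.3%, 58.2% and 57.4%, a mean of 56.3% ± 2.62 (SD, n = 3). That divisor was 1 peak per list, with a signal of 993, 699 and 593 in replicates 1, 2 and 3. The list medians were 60.9, 57.2 and 53.1. Such percentages, their SDs and the order of replicates in them therefore carry the variation of that 1 peak.

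A second ph-p peak (X, 2137717 to 2138074, summit 2137917) stood in the 5' UTR of the longer transcript, 454 bp downstream of its TSS, with a signal of 1054 and rank 30. Its own-list signal was 382, 400.5 and 299 in replicates 1, 2 and 3, at ranks 43, 21 and 28. It reached 38.4%, 57.3% and 50.4% of the highest signal of the list, a mean of 48.7% ± 9.55 (SD, n = 3). The ratio of the second signal to the strongest was 0.721, 0.984 and 0.879 in replicates 1, 2 and 3, a mean of 0.861 ± 0.133 (SD, n = 3), so the order was the same in every replicate while replicate 2 showed nearly equal values. The 2 summits were 588 bp apart in the main list and 556, 548 and 601 bp apart in the own lists. Among the 50 strongest peaks of the main list, and among the 50 strongest of each own list, they were the only ones within 2 kb of each other.

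The other 3 ph-p peaks were weaker. One in an intron, 1257 bp downstream of a TSS (X, 2135267 to 2135462), had a signal of 319 and reached 11.5%, 14.8% and 16.5% of the highest signal in the own lists. A second intronic peak, 2204 bp downstream of the TSS (X, 2134228 to 2134607), had a signal of 166 and reached 5.69%, 6.64% and 11.3%. Both were present in all 3 own lists, and both reached their highest percentage in replicate 3. The own-list signal of the first was lowest there, at 114, 103 and 98.0 in replicates 1, 2 and 3. That of the second was highest there, at 56.5, 46.4 and 66.8. The weakest (X, 2136322 to 2136701, signal 75.2, rank 3949) lay 110 bp downstream of an internal TSS, in a 5' UTR, and was in the own list of replicate 1 alone.

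In rank, the nearest main peaks above the strongest one of ph-p were at 2L (8292436 to 8292815, signal 1243), with no TSS within 1000 bp, and 96 bp upstream of Tcs5, which encodes a tRNA modification enzyme (signal 1234). The nearest below were at X (4910206 to 4910528, signal 1224), again with no TSS within 1000 bp, and 91 bp upstream of CG13390 (signal 1131).

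ph-d (polyhomeotic distal, FBgn0004860, X, 2115727 to 2123286, minus strand) is the tandem copy of ph-p and encodes a similar PRC1 subunit. It lies 2923 bp beyond the end of ph-p. Its main peak (X, 2123951 to 2124315, summit 2124113) was intergenic, 827 bp upstream of the start, with a signal of 479 and rank 223. In the own lists the signal was 174, 162 and 125 in replicates 1, 2 and 3, at ranks 268, 198 and 280, which is 17.6%, 23.2% and 21.0% of the highest, a mean of 20.6% ± 2.86 (SD, n = 3). Signal at ph-d over that at ph-p, each at its strongest peak, was 0.391 in the main list and 0.329, 0.399 and 0.367 in the own lists, a mean of 0.365 ± 0.0350 (SD, n = 3), so ph-d was the lower in every replicate. A weaker ph-d peak (X, 2121954 to 2122333, signal 95.3), 352 bp upstream of an internal TSS, was the promoter peak counted above and was in none of the own lists. Replicate 1 alone had another, 126 bp downstream of the ph-d start, with a signal of 62.2.

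The strongest peaks of the pair stood where the duplicated sequence is interrupted. Of the bases of ph-p, 47.0% aligned with the ph-d window (5711 bp, blastn, same strand). The longest stretch, 4480 bp at 92.0% identity in the gene bodies, held no main-list summit of either gene. Neither did 3 stretches near the starts, of 529, 387 and 358 bp at 90.7%, 70.5% and 81.0% identity. The strongest ph-p summit fell in a 208 bp stretch of ph-p (X, 2137265 to 2137472) whose place in ph-d is taken by 15 bp, and most of that stretch is printed in capitals above. At that place in ph-d, or within 100 bp of it, the authors' ranked list of 111051 records from pooled libraries held no record at all. The second ph-p summit fell in the next interruption, 98 bp in ph-p (X, 2137856 to 2137953) against 209 bp in ph-d (X, 2124053 to 2124261), and the ph-d summit lay in that same interruption on the ph-d side. So the ph-d peak corresponds in position to the second ph-p peak and not to the strongest. Within 100 bp of its summit, the strongest ph-p peak had 0 other matches in the genome at an E-value of at most 1e-05. The strongest ph-d peak had 952, the best of them 82.1% identical over 84 bp. Low-complexity sequence was not masked in this search, and the printed ph-d sequence ends in repeats of ATT. How many of the 952 matches fell on those repeats was not counted. The part of the peaks played by the differences in sequence between ph-p and ph-d was not tested.

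**Figure D2:**
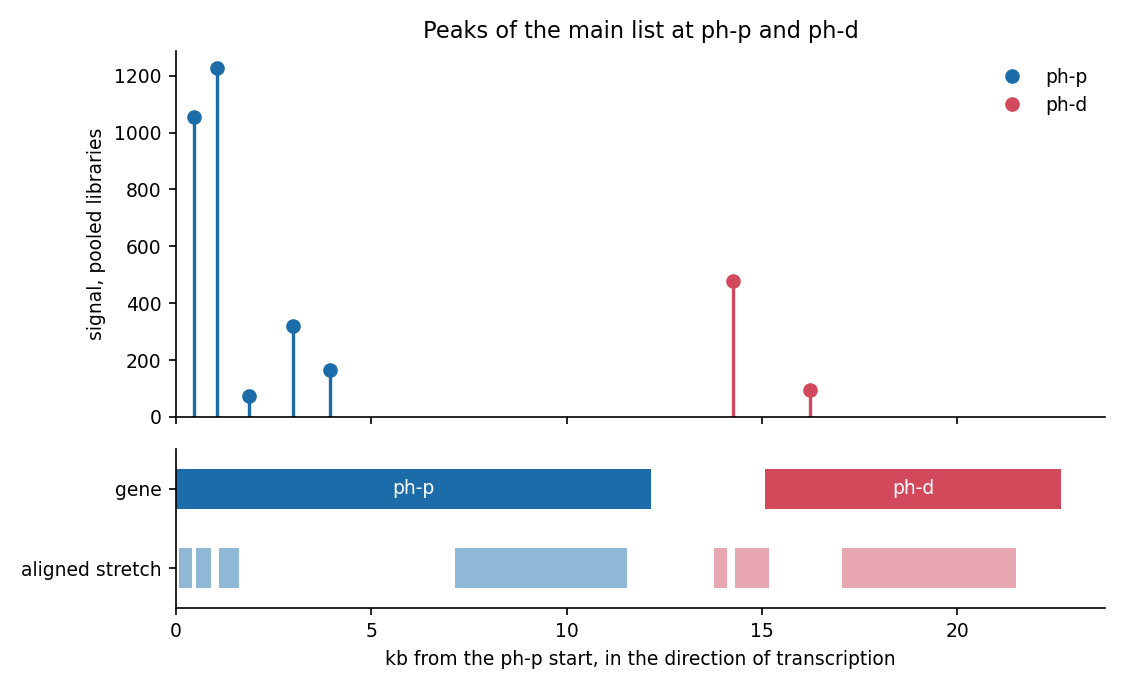
Upper panel, signal of each main peak in the pooled libraries at ph-p and ph-d, against distance from the ph-p start; lower panel, the gene bodies and the stretches over 300 bp long that align between them, pale blue in ph-p and pale red in ph-d. The summits of 1226 and 1054 at ph-p and 479 at ph-d stand between aligned stretches.

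**Figure D3:**
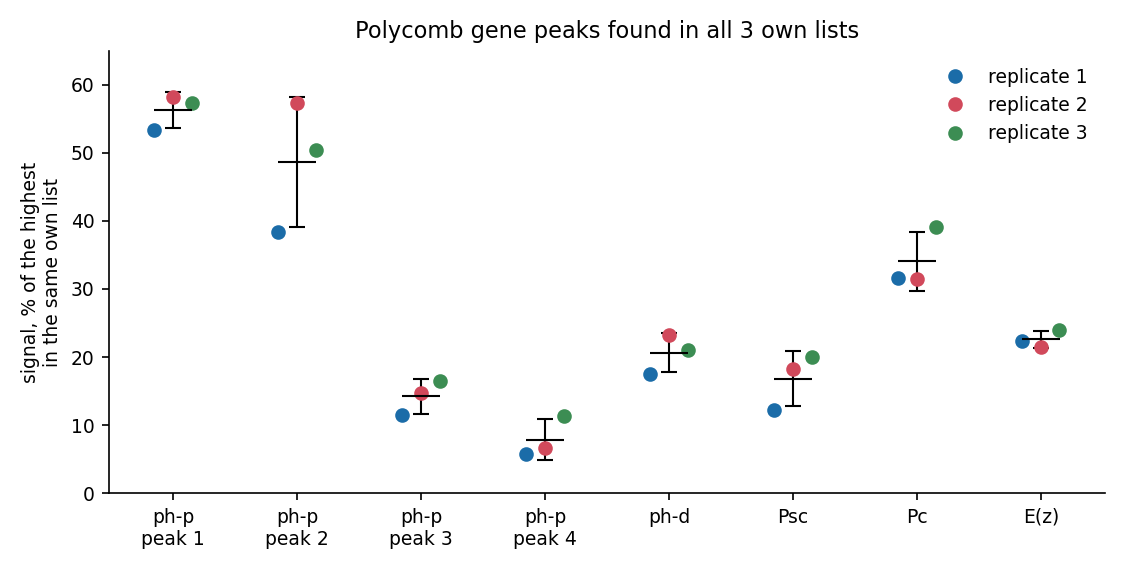
Signal of the 8 main peaks found in all 3 own lists, as a percentage of the highest signal in the same own list; coloured points are replicates, the black bar is their mean and the whiskers are 1 SD (n = 3). The strongest ph-p peak is at 53.3% to 58.2%, Pc at 31.5% to 39.1% and E(z) at 21.5% to 23.9%.

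Psc (Posterior sex combs, FBgn0005624, 2R, 12965997 to 12980994, minus strand) encodes the PRC1 subunit that partners Sce and compacts chromatin. Its main peak (2R, 12975465 to 12975683, signal 373, rank 368) was intronic, 5096 bp downstream of the nearest TSS. The own-list signal was 122, 128 and 118 in replicates 1, 2 and 3, at ranks 518, 332 and 308, or 12.3%, 18.2% and 19.98% of the highest. Relative to the highest signal, replicate 1 was the lowest, with a mean over replicates of 16.8% ± 4.04 (SD, n = 3).

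The promoter peak of Psc (2R, 12980719 to 12981098), 85 bp downstream of a TSS in the 5' UTR, was the weakest of the 13, with a signal of 22.5 and rank 4509, and it was in none of the own lists. The irreproducible discovery rate (IDR) measures how well the ranks of a peak agree between a pair of lists, and low values mean good agreement. In the comparison behind the main list this record had a global IDR of 0.00421, while the record at 12980665, with a higher signal of 67.5, had 0.706. In the pooled ranked list the order was the reverse, with 0.658 at the promoter record and 0.00752 at its neighbour. The count of genes with a promoter peak was 4 without this record.

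The strongest peak near Psc lay outside its window and was picked out after its values were seen. It stood 4212 bp upstream of the Psc start (2R, 12985052 to 12985364), 161 bp upstream of lncRNA:CR44339, a non-coding RNA gene, with a signal of 963 and rank 38. Its rank was 31, 46 and 40 in the own lists of replicates 1, 2 and 3. Of the 13 peaks inside the windows, the strongest pair at ph-p alone ranked higher.

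Su(z)2 (Suppressor of zeste 2, FBgn0265623, 2R, 12996501 to 13007911, plus strand) is the paralogue of Psc, 15506 bp away, and encodes a protein that can take the place of Psc in PRC1. Its peaks were among the weaker ones. The stronger (2R, 13008226 to 13008605, signal 122.5, rank 2319) was intergenic, past the end of the gene and 11293 bp downstream of the nearest TSS. It had an own-list signal of 58.2 in replicate 1 and 37.9 in replicate 3, and in replicate 2 a record in the ranked list had a signal of 26.4 and a global IDR of 0.0904, short of the authors' threshold. The other (2R, 12996973 to 12997352, signal 82.7, rank 3670) lay in the 5' UTR, 40 bp downstream of a TSS, and was in the own list of replicate 3 alone, with a signal of 41.2. Su(z)2 had no peak in either of the lists that compared replicate 2 with another replicate.

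**Figure D4:**
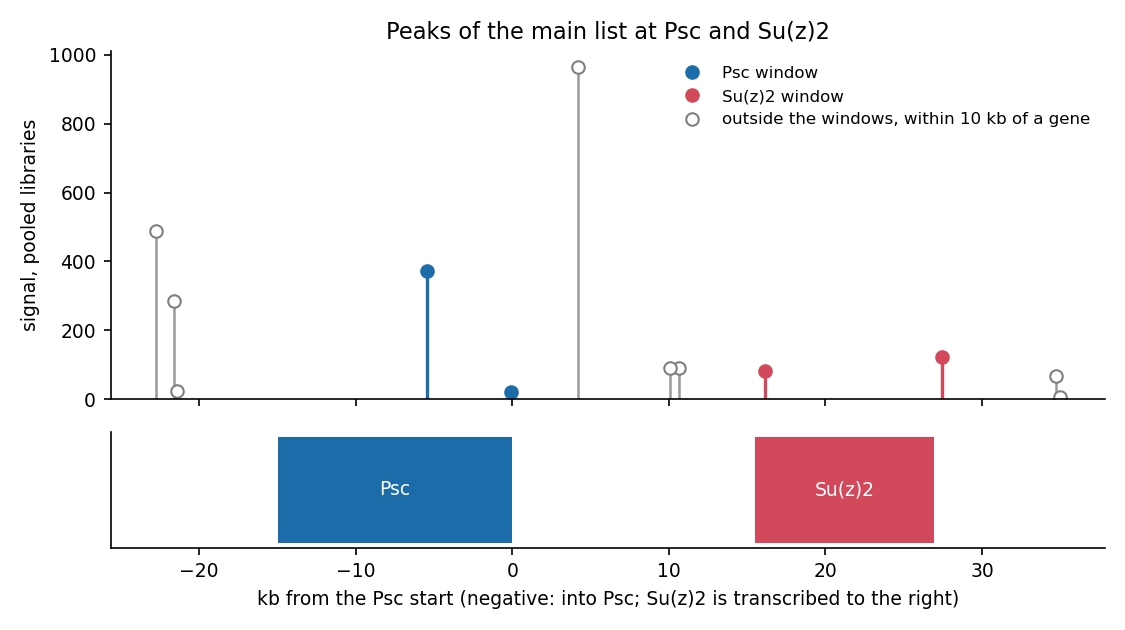
Upper panel, signal of each main peak in the pooled libraries in the Psc and Su(z)2 windows (filled) and outside them within 10 kb of either gene (open), against distance from the Psc start; lower panel, the gene bodies. The open point of signal 963 lies between the genes and stands above the peaks inside both windows.

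Pc (Polycomb, FBgn0003042, 3L, 21306138 to 21318020, minus strand) encodes the PRC1 subunit whose chromodomain reads the methyl mark of PRC2. A single strong peak (3L, 21304427 to 21304715, summit 21304570) fell in its window, past the end of the gene, with a signal of 774 and rank 76. The own-list signal was 314, 220 and 232 in replicates 1, 2 and 3, at ranks 76, 110 and 63. Relative to the highest signal it was 31.6%, 31.5% and 39.1%, a mean of 34.1% ± 4.36 (SD, n = 3), with replicate 3 above the others. By signal, replicate 1 was the highest. By rank as a share of its list, the peak stood in the top 2.23%, 3.97% and 2.32% in replicates 1, 2 and 3.

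That peak lay 13450 bp from the Pc start and at the promoters of other genes. The summit was 88 bp downstream of the TSS of CG11309 and 127 bp upstream of that of CG7632, protein-coding genes whose start sites lie 39 bp apart and point away from each other. At the Pc start itself the pooled ranked list had 1 record within 500 bp, with a signal of 32.1, rank 24885 of 111051 and a global IDR of 0.636. Pc was therefore counted among the genes with a peak and not among those with a promoter peak.

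Sce (Sex combs extra, FBgn0003330, 3R, 27680431 to 27682029, minus strand) encodes the RING subunit that ubiquitinates histone H2A and was the PRC1 gene without a main peak. Its strongest pooled record had a signal of 40.7 and rank 15257 of 111051, 205 bp downstream of the TSS in a coding exon, with a global IDR of 0.279. In the ranked lists of replicates 1, 2 and 3 the strongest record had a signal of 20.8, 16.3 and 21.8, and the global IDR was 0.734, 0.677 and 0.504. All 4 values were above 0.01, the largest global IDR kept in the main list. That limit belongs to the comparison behind the main list, a different one from these 4, and the value at Sce in it was not read out.

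Of the PRC2 genes, E(z) (Enhancer of zeste, FBgn0000629, 3L, 10634575 to 10638130, minus strand) encodes the histone methyltransferase. Its peak (3L, 10637865 to 10638137, summit 10638015) had a signal of 515 and rank 187. In the own lists the signal was 222, 151 and 142 in replicates 1, 2 and 3, at ranks 162, 241 and 212. Relative to the highest signal it was 22.4%, 21.5% and 23.9%, a mean of 22.6% ± 1.21 (SD, n = 3). That was the smallest SD of the 8 peaks found in all 3 own lists. The SDs were not scaled to the means of those peaks, which ran from 7.87% to 56.3%.

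The E(z) summit lay 115 bp downstream of the E(z) start and 131 bp upstream of the TSS of Cnep1r2, a neighbour on the other strand whose start is 16 bp from that of E(z). The main peak covered that E(z) start, at 10638130, and ended short of the Cnep1r2 start, at 10638146. The own-list peaks ended at 10638128, 10638093 and 10638109 in replicates 1, 2 and 3 and reached neither of these starts. Another E(z) TSS, at 10637879, lay inside the main peak and inside the own-list peak of replicate 1, which began at 10637877. The peaks of replicates 2 and 3 began at 10637923 and 10637940 and did not cover it. The summits of the own lists lay within 7 bp of each other. The 65 bases of intron printed above held 3 matches of AAATAT and 2 of TATAAA, with a GC content of 10.8%. The window within 100 bp of the summit had 19 other matches in the genome, the best 79.5% identical over 83 bp, again without masking of low-complexity sequence. E(z) and ph-p were the only members with a peak at their own promoter in all 3 own lists.

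esc (extra sexcombs, FBgn0000588, 2L, 11827204 to 11829405, minus strand) encodes the PRC2 subunit that binds methylated histone H3. It had no main peak, and its strongest pooled record, 171 bp downstream of the TSS, had a signal of 36.6, rank 19067 and a global IDR of 0.147. In the ranked lists of replicates 1, 2 and 3 the strongest record had a signal of 16.04, 16.2 and 13.7. These lay in different parts of the window, 151, 1636 and 4120 bp from the TSS.

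pho (pleiohomeotic, FBgn0002521, 4, 1172469 to 1181628, minus strand) encodes the DNA-binding subunit of PhoRC. It was the gene with the fewest records: none in the ranked lists of pooled libraries, replicate 2 and replicate 3, and 8 in that of replicate 1, the strongest with a signal of 14.3. The small chromosome 4 was not empty, with 21 main peaks, but 0 of them lay within 20 kb of pho. The pooled ranked list had 6 of its 764 chromosome 4 records in that stretch. Scm (Sex comb on midleg, FBgn0003334, 3R, 9633359 to 9637611, minus strand) encodes a SAM domain protein that joins PRC1 to the other complexes. Its strongest pooled record, 1700 bp downstream of the TSS in a coding exon, had a signal of 42.7, rank 13713 and a global IDR of 0.288, and the strongest of the ranked lists of replicates 1, 2 and 3 had a signal of 29.1, 15.6 and 14.1. The lists give no read totals, so how deeply each library was sequenced is unknown, and a peak at Sce, esc, pho or Scm too weak for these lists was not detectable.

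**Figure D5:**
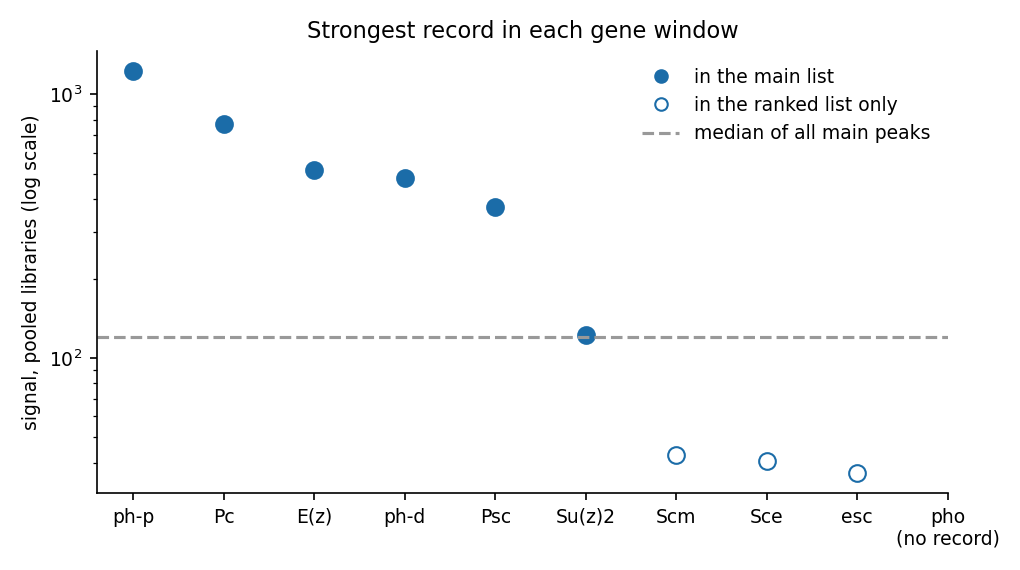
Signal of the strongest record of the pooled libraries in each gene window, on a log axis; filled points are in the main list, open points in the ranked list alone, and the dashed line is the median of all main peaks (120). Su(z)2 stands near that median, the other 5 genes with a peak lie above it, and Scm, Sce and esc lie between 36.6 and 42.7.

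Of a list of 26 other genes linked to the Polycomb system, 14 (53.8%) had a main peak in the window, against 32.1% of all protein-coding genes. These 26 were not matched for length, and some, such as jing and psq, are longer than any of the 10. Among all genes as long as the 6 longer members, 50.8% had a peak. Of the 26 genes, 5 (19.2%) had a peak within 500 bp of their own TSS, near the 16.2% of all genes. In all 3 own lists 10 (38.5%) had a peak, against 16.7%. By group, the 14 genes with a main peak were 3 of 6 further PRC2 genes, 2 of 3 genes of PRC1 variants and 1 of 2 PhoRC genes. The rest were 2 of 2 genes of the deubiquitinase PR-DUB, 5 of 8 genes of DNA-binding factors and 1 of 5 others. Those with a peak in all 3 own lists were 3, 1, 1, 1, 4 and 0 in the same order. The highest signal was at Trl, which encodes the GAGA factor of Polycomb response elements and many promoters (3L, 14759330 to 14759700, signal 1432, rank 8), 1527 bp downstream of a TSS of Trl. It ranked 10, 6 and 17 in the own lists of replicates 1, 2 and 3.

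For 5 of the 8 highest genes of this list the summit was nearest to another gene. At Caf1-55, which encodes the histone chaperone of PRC2 (signal 1292, rank 16), it lay 127 bp upstream of mRpS10. At phol, the paralogue of pho (signal 852, rank 57), it lay 115 bp upstream of CG3552. At Dsp1, which encodes an HMG-box protein (signal 533), it lay 567 bp downstream of a TSS of CG9921. RYBP (signal 235) and caly (signal 212), which encode a PRC1 variant subunit and a PR-DUB subunit, had theirs 227 bp upstream of lncRNA:CR44761 and 148 bp upstream of CG42837. From the TSS of the listed gene, the summits at Caf1-55, phol, Dsp1, RYBP and caly lay 3962, 1516, 579, 3157 and 561 bp away. At Dsp1 the summit was thus almost as close to Dsp1 as to CG9921. The remaining genes, grh and psq, encode DNA-binding factors and had signals of 239 and 179 at summits 2064 bp downstream and 2504 bp upstream of a TSS of their own.

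Short sequences under the 13 summits were counted within 100 bp, on both strands. GCCAT, the core of the site that Pho binds, was in 3 of the 13 windows, against 24.5% of all 4770 main windows: an intronic peak of ph-p, the intronic peak of Psc and the peak of E(z). GAGAG, the core of GAGA factor sites, was in 2, both at Psc, against 24.1%. AAATAT was in 6 against 50.5%, TATAAA in 6 against 36.1%, CAGTG in 8 against 44.8%, GAGCG in 2 against 19.8% and TATTTTAA in 2 against 9.27%. TATTTTAA and AAATAT, or TATAAA and AAATAT, can overlap. TATCGATA, the site of the factor Dref, and CACGTG were in none of the 13, against 1.61% and 1.87%. A match is only a run of letters, and with 13 windows none of these shares was tested. The median GC content was 33.8% in the 13 windows and 34.8% in all main windows, with the lowest member value, 24.4%, at E(z) and the highest, 57.7%, at the weak Psc promoter record.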

How the data were processed

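The files were lists of ChIP-seq peaks on assembly dm6, per the text notes deposited with them. Which aligner and caller made them is not given in the sources used here. The deposited signal is the authors' value per peak, of unstated scale, and was used to rank peaks within a list. The score deposited per peak is scaled from the global IDR by the authors, with 830 as its lowest value in the main list. The ranked lists give −log10 of the global IDR, as deposited by the authors. The main list held global IDR values of at most 0.01.

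As the main list the conservative one of the authors was taken. By matching of identical records, 74.0% and 67.9% of the sets it compared came from replicates 1 and 3, and its peaks and signals came from pooled libraries. The 16 columns with signals and summits of the compared sets were not used. No depth was given, so no counting interval could be had, and biological replicates are as the labels state.

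Genes and TSSs came from Ensembl BDGP6.54, release 115, on 6 arms and bases from the RefSeq copy of that assembly, aligned with blastn 2.17.0 at an E-value of at most 1e-05. Scripts used Python 3.11.15 with pandas 2.3.3, numpy 2.4.6 and matplotlib 3.10.9, and the window, promoter and merging counts were checked on simulated summits. Coordinates are 1-based. A promoter peak has its summit within 500 bp of a TSS. Named were all 10 genes with each main peak in their windows, the gene of the nearest TSS where it was another, the 2 main peaks on either side of the strongest in rank (with a gene if its TSS lay within 1000 bp), and up to 8 of the other Polycomb-related genes by signal. Genes and lists were chosen with earlier results of these data known. No test was made, since there was 1 group. Alternatives were other gene windows, lists, IDR limits, promoter distances, gene models, replicates left out and sequence windows.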

Additional observations from a re-analysis of the deposited data

How the results depend on the processing

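Of 109 recomputed values, 77 stayed near the main one. For counts that meant within 1.5 times. For the percentile of a strongest peak it meant a change smaller than the SD of its percentiles in the own lists. The count of the 10 genes with a peak was 5 or 6 under every window, list and gene model tried. The count over all protein-coding genes moved more. It was 1799 with no flank, 4477 with 2 kb, 6374 with 5 kb and 3005 at a global IDR of at most 0.001. Peaks in the windows numbered 8 in the own list of replicate 2, and the main peaks found in both remaining own lists were 8 to 9 when 1 replicate was left out. Genes with a promoter peak numbered 2 at a global IDR of at most 0.001, 2 to 3 in the own lists, 2 in both remaining own lists with any 1 replicate left out, 3 to 4 in the lists that left replicate 1 or 3 out of the IDR comparison, and 4 without the weak Psc record, an alternative added after seeing the data. With no flank beyond the gene, 3 of the 10 genes had a peak in all 3 own lists. No share over all genes was computed for that count or for the promoter counts above. Without a flank, 7 of the 26 further Polycomb-related genes had a main peak, against 1799 (12.9%) of all protein-coding genes, not matched for length. Within 1000 bp of a TSS, 8 of those 26 (30.8%) had a peak, against 2732 (19.6%) of all genes. Protein-coding genes with a peak in both remaining own lists numbered 2462, 2647 and 2692 without replicates 1, 2 and 3. GCCAT was in 1 of 13 windows within 50 bp of the summit, against 12.2% of all main windows, and GAGAG in 7 of 13 within 200 bp, against 47.7%. Each percentile of a strongest peak moved at the stricter IDR, where the list is shorter. The cause of the other moves was not tested. No paired analysis was possible because there was 1 group.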
